A study of Mus musculus with 6 samples.

Results

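Sox genes encode transcription factors with a shared DNA-binding region, the HMG box. The 8 genes described here are Sox3, Sox4, Sox5, Sox6, Sox11, Sox12, Sox13 and Sox18, chosen by symbol. They are Sox factors best known from roles other than sex determination and pluripotency, and do not include all such Sox genes. All 8 were listed in every count file, out of 21786 gene symbols common to the 6 files, and all 8 passed the filter on low counts. Stra8 is a gene induced by retinoic acid that germ cells need to enter meiosis. Polyadenylated RNA was sequenced from whole testes of mice on a C57BL/6 background. The 3 Stra8-deficient libraries (Stra8 -/-) came from grossly enlarged testes of males aged 1 year, and the 3 wild-type libraries (Stra8 +/+) from normal testes of males aged 2 to 4 months. According to the labels, cells resembling type A spermatogonia fill most of the enlarged testes; the labels do not name the deleted part of the allele. Age and enlargement follow genotype, so their effects cannot be told apart.

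An HMG box binds short AT-rich sites in the minor groove and bends the DNA, and the members of the family are sorted into groups by the sequence of this box. SoxB1 factors such as Sox3 keep progenitor cells undifferentiated, SoxC factors (Sox4, Sox11 and Sox12) activate genes in embryonic neurons and mesenchyme, SoxD factors (Sox5, Sox6 and Sox13) carry a coiled coil and no activation domain of their own, and SoxF factors such as Sox18 act in vessels. In the mouse testis Sox3 is known from spermatogonia, where its loss impairs their differentiation, and Sox5 has a short form made in postmeiotic germ cells.

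Members of 1 family can share stretches of RNA sequence, which matters for read counting. Over the 28 pairs of members, the longest exact run shared by their GENCODE M21 transcripts (GRCm38) had a median of 17.5 bases. The pair with the longest run was Sox4 and Sox11, on chromosomes 13 and 12, with 48 bases inside both coding sequences. That run is shown because a read lying within it cannot be assigned to 1 of these genes alone.
Sox4 and Sox11 shared run: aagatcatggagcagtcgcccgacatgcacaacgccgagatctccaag
Across all 28 pairs the runs measured 12 to 48 bases. The read length is not given in the sources used here, so how many reads fell wholly within such runs was not tested.

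Promoter sequences of 250 bases before to 50 bases after an annotated start (RefSeq, GRCm38.p6, all on the minus strand) were at hand for Sox4, Sox11, Sox12, Sox5, Sox6 (6 starts) and Sox13. The promoters of Sox5 and Sox13 are shown because these SoxD genes changed in opposite directions, and that of Sox11 because it had the largest rise among the genes with a sequence. Capitals mark matches, on either strand, to the Sox core ACAAT or to the GC box, GGGCGG. The core of the cAMP response element, TGACG, was searched on both strands as well, and so was the TATA box, TATAAA.
Sox5 promoter, chr6:143947057-143947356: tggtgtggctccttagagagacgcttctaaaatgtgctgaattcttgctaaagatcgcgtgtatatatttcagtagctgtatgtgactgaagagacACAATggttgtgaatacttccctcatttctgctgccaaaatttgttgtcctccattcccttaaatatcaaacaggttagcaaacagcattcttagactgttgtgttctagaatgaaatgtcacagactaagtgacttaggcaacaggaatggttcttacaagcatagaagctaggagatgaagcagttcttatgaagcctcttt
Sox13 promoter, chr1:133424163-133424462: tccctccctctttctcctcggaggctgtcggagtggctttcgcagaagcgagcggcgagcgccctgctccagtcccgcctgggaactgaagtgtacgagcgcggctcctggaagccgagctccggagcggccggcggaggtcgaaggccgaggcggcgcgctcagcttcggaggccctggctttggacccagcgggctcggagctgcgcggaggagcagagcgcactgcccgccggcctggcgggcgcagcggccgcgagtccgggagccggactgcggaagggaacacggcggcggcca
Sox11 promoter, chr12:27342669-27342968: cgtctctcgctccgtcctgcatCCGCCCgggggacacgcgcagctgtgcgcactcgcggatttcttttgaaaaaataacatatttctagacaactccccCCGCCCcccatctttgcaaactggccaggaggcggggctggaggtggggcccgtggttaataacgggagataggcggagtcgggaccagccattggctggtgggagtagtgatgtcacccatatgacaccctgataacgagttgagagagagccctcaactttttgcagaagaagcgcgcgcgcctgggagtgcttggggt
The Sox5 window held 3 CG dinucleotides and the Sox13 window 40, where the median of 32851 promoters of this length was 7. The windows of Sox4, Sox11 and Sox12, which rose, held 12, 21 and 47, and the 6 of Sox6, which fell, held 2 to 13. A link between CG count and direction was not tested. The Sox5 start lies inside the gene, and the 1 GENCODE transcript of Sox5 that begins there is 1734 bases long, while the longest transcript of the gene has 7243 bases. By the same match, no GENCODE transcript of Sox13 or of Sox11 was found to begin at the start in its window. One match to the Sox core was found in the Sox5 window, as in 31.0% of all promoters. None of the searched motifs occurred in the Sox13 window, and the GC box occurred 2 times in the Sox11 window and in 35.7% of all promoters. No overlap between matches occurred in these 3 windows. Counts sum all starts of a gene, so the files do not tell which promoter was in use.

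Of the 8 genes, 5 rose in the Stra8-deficient testes (Sox3, Sox4, Sox11, Sox12 and Sox13), 2 fell (Sox5 and Sox6) and Sox18 did not pass the test (quasi-likelihood test of edgeR, p adjusted by Benjamini-Hochberg over 15018 genes, threshold 0.05). Changes were the rule in this comparison: 75.8% of all tested genes were called, 39% higher and 36.7% lower. A fold of at least 2 was also reached by 6 of the 8, all called genes but Sox12 with TMM factors, and by 64.8% of all tested genes. The share of members called, 7 of 8, is therefore close to that background, and the account that follows concerns which member went which way, by how much and at what level. Levels are given in TMM-scaled CPM (reads of a gene relative to the library's reads), fold changes are on the log2 scale, positive where the Stra8-deficient level was higher, with an approximate SE, and the median of all genes on that scale was 0.11. The fit was repeated with libraries scaled to 11 Sertoli cell genes, called Sertoli scaling here, under which that median was 3.08. Sox3, Sox4, Sox11 and Sox13 then had log2 fold changes of 7.35, 4.48, 7.33 and 6.64. That scaling weighs the 11 genes by their reads, and Clu held 1358 of their summed 1798 CPM in wild type on average. Clu was at 121, 31.1 and 586 CPM in the Stra8-deficient libraries. With TMM factors the 11 genes did not change alike, from -4.71 (Fshr) to 1.38 (Trf, not called). Under Sertoli scaling 10212 of all 15018 tested genes were higher and 1468 lower. With library size alone the counts were 7550 higher and 4326 lower, with upper-quartile factors 6645 and 4959, and with RLE size factors 5528 and 5772. The counts of gene lists under these scalings, given below, are to be read beside these. In a whole tissue, fewer cells of a type and less RNA per cell cannot be told apart.

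Depth ranged from 6733128 to 12425689 gene reads per library, and the 8 genes took 2479 to 6369 reads of each. Libraries of 1 genotype correlated at 0.949 to 0.994 and those of different genotypes at 0.436 to 0.458 (Spearman, across genes, which are not independent replicates). The biological coefficient of variation was 38.1% among the Stra8-deficient libraries and 7.41% among the wild-type ones, and the test shares 1 estimate between them. Stra8 itself was read at 21.2, 23.7 and 18.1 CPM in Stra8-deficient against 18.7, 18.6 and 17.1 CPM in wild-type libraries. Since counts sum all exons and the deleted part is not stated in the sources used here, these values do not check the labels. The third Stra8-deficient file lists 23285 symbols, against 22055 in the other files, and holds all 8 genes.

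**Figure D1:**
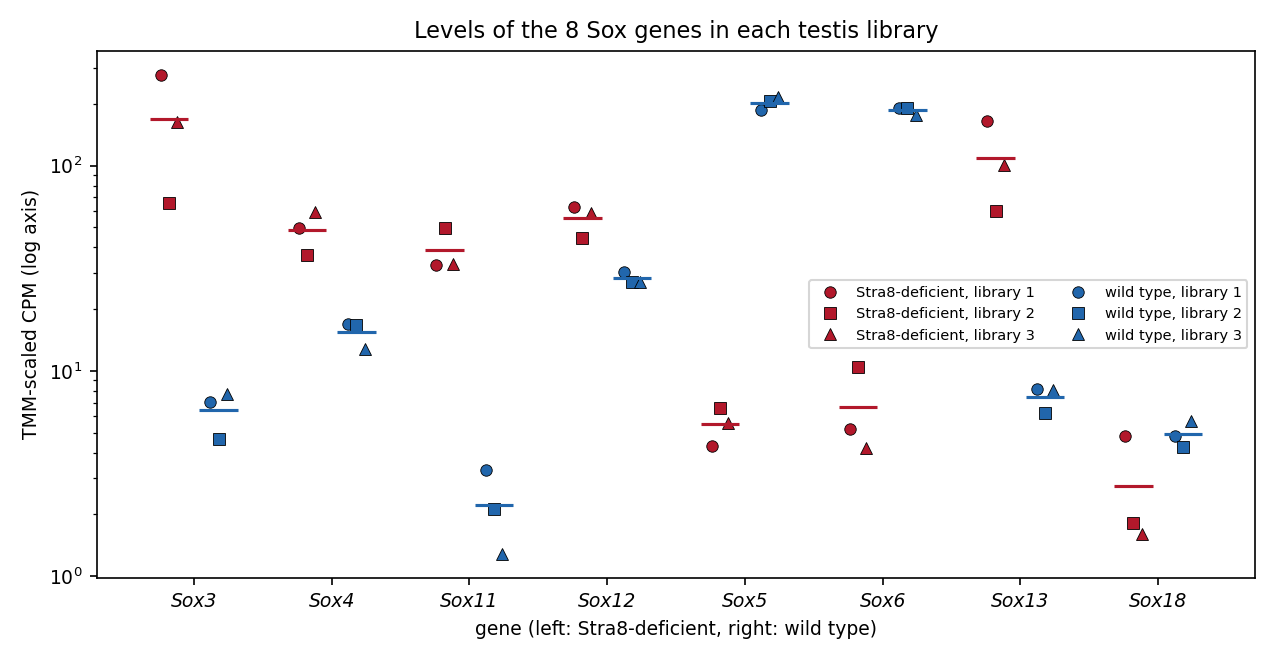
TMM-scaled CPM (log axis) of each gene in each library, with Stra8-deficient testes in red on the left and wild-type testes in blue on the right of each pair; symbols mark the library and bars the mean of 3. Sox3, Sox4, Sox11, Sox12 and Sox13 lie higher in all 3 Stra8-deficient libraries, Sox5 and Sox6 lower, and Sox18 overlaps.

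Sox3, the X-linked SoxB1 gene, had the largest rise of the 8. It was read at 278, 66.1 and 163 CPM in the Stra8-deficient libraries, against 7.03, 4.66 and 7.70 CPM in the wild-type libraries. The genotypes did not overlap, as for 80.2% of all tested genes, but the second Stra8-deficient library lay far below the other 2. The log2 fold change was 4.71 ± 0.54, a 26.2-fold rise (edgeR, adjusted p = 5.93e-05). It was 4.11 without the first Stra8-deficient library.

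Between the genotypes, Sox3 rose alongside genes of the spermatogonia in which it is known to act. All 14 genes of a list of undifferentiated and early differentiating spermatogonia rose, with a median log2 fold change of 4.68. Their summed level was 2296 to 3532 CPM in Stra8-deficient against 168 to 185 CPM in wild-type testes. The list, like the others here, was chosen with earlier results of these data known, and 39% of all tested genes were called higher. Nanos3, which binds RNA in germ cells, rose by 7.45 ± 0.24 and Upp1, a uridine phosphorylase of these cells, by 6.75 ± 0.27 (edgeR, adjusted p = 2.79e-08 and 6.78e-08). Neurog3, a bHLH factor of the list placed downstream of Sox3 in mouse spermatogonia, is named here after its value was seen. Neurog3 was at 37.4 CPM in Stra8-deficient testes, against 0.622 CPM in wild type on average. It rose by 5.86 ± 0.81 (edgeR, adjusted p = 1.88e-04). Its reads numbered 343, 715 and 145 across those libraries, highest in the second Stra8-deficient one, in which Sox3 was lowest. None of the 14 genes was at 0 in either genotype. The part of cell number in the level of Sox3 was not tested.

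SoxC genes all rose, to unequal extents. Sox11, known from developing neurons, was at 32.8, 49.7 and 33.4 CPM in the Stra8-deficient libraries, against 3.28, 2.12 and 1.28 CPM in the wild-type libraries, where it rested on 21, 15 and 7 reads. It rose on the log2 scale by 4.09 ± 0.36 (edgeR, adjusted p = 7.65e-06), or 17.1-fold. Every Stra8-deficient library lay far above every wild-type library.

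Sox4, which acts in heart and lymphocyte development, was read at 49.5, 36.8 and 59.7 CPM in the Stra8-deficient libraries, against 16.9, 16.7 and 12.8 CPM in wild type. Its rise on the log2 scale was 1.65 ± 0.24 (edgeR, adjusted p = 2.08e-04). An unstranded count could include reads of a lincRNA, Gm26735, annotated on the opposite strand over 2616 bases of Sox4 exon, and strand handling is not stated.

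Sox12, the weakest activator of the SoxC group, had the smallest called change with TMM factors. It was at 62.9, 44.4 and 58.7 CPM in the Stra8-deficient libraries, against 30.4, 27.1 and 27.1 CPM in wild type, again without overlap. The difference was 0.97 ± 0.20 log2 units (edgeR, adjusted p = 0.00167), or 1.96-fold. It ranged from 0.84 to 1.07 when 1 library was left out, but the scaling moved it further. It was 1.16 with offsets for GC and length, 1.24 with upper-quartile factors, 1.59 with library size alone and 3.87 under Sertoli scaling, all past 2-fold.

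The make-up of the SoxC group shifted with these unequal rises. In reads per kb of longest transcript, Sox11 held 17.6 ± 6.71% of the group in Stra8-deficient testes, against 2.67 ± 0.972% in wild type (SD, n = 3 each). Sox12 held 45.5 ± 3.88% in Stra8-deficient testes, against 64.6 ± 3.26% in wild type. The share of Sox4 was 36.9 ± 4.81% in Stra8-deficient testes, against 32.7 ± 2.70% in wild type, and overlapped between the genotypes. Summed over the 3 genes the level was 143 ± 10.7 CPM in Stra8-deficient testes and 45.9 ± 4.66 CPM in wild type. The sum varied less among the Stra8-deficient libraries, from 131 to 152 CPM, than any of its members did in proportion. Macrophage genes, 7 of 9 higher, summed to 369 to 1190 CPM in Stra8-deficient testes, against 91.6 to 102 CPM in wild type. Fibroblast genes, 3 of 8 higher and 1 lower, summed to 239 to 455 CPM in Stra8-deficient testes, against 125 to 150 CPM in wild type. Of these fibroblast genes 4 were higher with upper-quartile factors, 5 with library size alone and all 8 under Sertoli scaling, with 0 lower in each. None of these markers was at 0 in either genotype, and their part in the SoxC levels was not tested.

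Among the 7 tested genes of a list of reported SoxC targets and partners, 3 rose, 2 fell and 2 were not called, with a median of 1.57. The split depended on the scaling, with 4 higher and 2 lower by library size alone, and 5 higher and 0 lower (median 4.29) under Sertoli scaling. Pou3f2, a POU factor that partners SoxC proteins in neural cells, rose by 5.75 ± 0.84 and Mycn, a Myc family gene, by 3.17 ± 0.48 (edgeR, adjusted p = 2.04e-04 and 2.56e-04). The reads of Pou3f2 numbered only 2, 2 and 0 in the wild-type libraries, against 45, 104 and 320 in the Stra8-deficient ones. Tead2, a Hippo pathway factor and SoxC target, rose by 1.73 ± 0.21 (edgeR, adjusted p = 5.62e-05) and is named with its value already known. Tubb3, a neuronal tubulin gene activated by Sox11 in neurons, fell by 2.64 ± 0.31 (edgeR, adjusted p = 5.22e-05), a value that Sertoli scaling turned to 0.21, not called.

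Among the SoxD genes, Sox5 and Sox6 fell and Sox13 rose. Sox5 was at 4.32, 6.57 and 5.56 CPM in the Stra8-deficient libraries, against 187, 207 and 216 CPM in the wild-type libraries. The log2 value was -5.21 ± 0.22 (edgeR, adjusted p = 9.00e-08), 36.9-fold lower, the largest fall of the 8. The reads numbered 43, 69 and 83 in the Stra8-deficient libraries, so the remaining level was measured, not at the limit of 3 counts. An antisense gene, Sox5os1, shares 1330 bases of Sox5 exon, and its reads cannot be told apart without strand.

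Sox6, which works with Sox5 in cartilage and alone in red cell precursors, followed closely. It was at 5.22, 10.5 and 4.22 CPM in the Stra8-deficient libraries, against 192, 191 and 176 CPM in wild type. It differed by -4.82 ± 0.34 on the log2 scale (edgeR, adjusted p = 1.91e-06), and -5.34 without the second Stra8-deficient library, where Sox6 stood highest. Under Sertoli scaling it was -1.43 and no longer called (edgeR, adjusted p = 0.130), while Sox5 at -2.10 stayed called.

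Sox13, a factor of gamma delta T cells that binds TCF proteins, went the other way. It was at 166, 60.4 and 101 CPM in the Stra8-deficient libraries, against 8.12, 6.21 and 8.07 CPM in wild type. It rose by 3.87 ± 0.38 on the log2 scale (edgeR, adjusted p = 1.62e-05), or 14.6-fold. Its order among the Stra8-deficient libraries, the first above the third and the third above the second, was shared by Sox3 and Sox12.

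**Figure D2:**
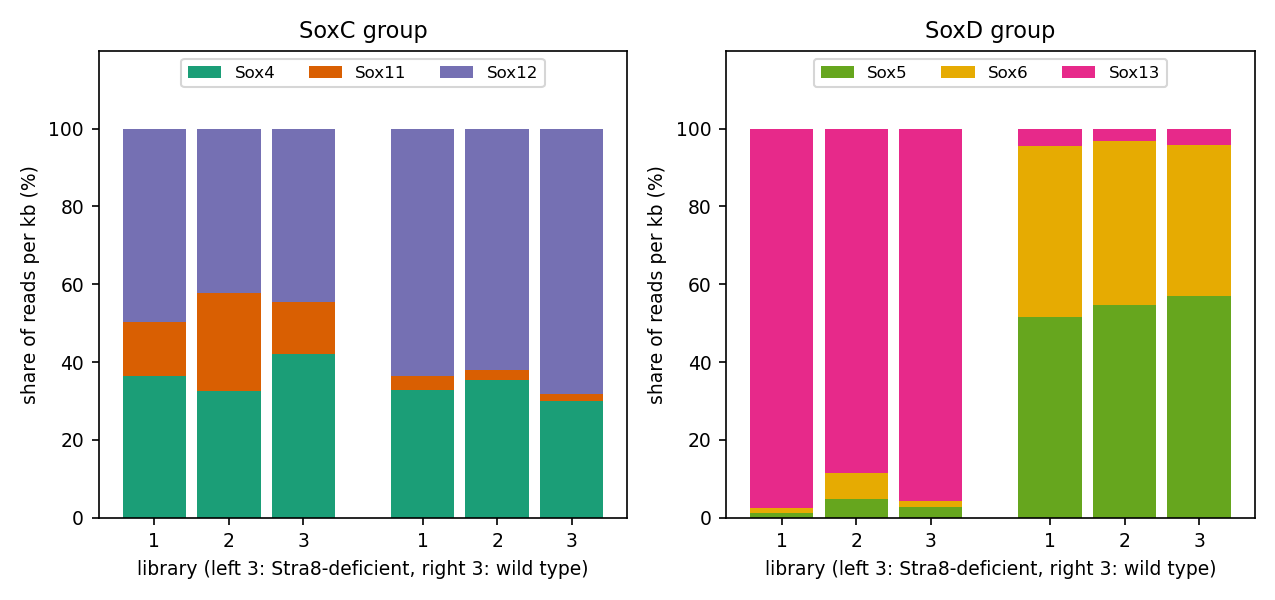
Share of reads per kb of longest transcript (%) held by each gene within the SoxC group (left panel) and the SoxD group (right panel), 1 bar per library, Stra8-deficient on the left and wild type on the right of each panel. Sox13 fills 88.5% to 97.4% of the SoxD bars in Stra8-deficient testes, against 3.22% to 4.39% in wild type.

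Sox13 was the main SoxD gene by reads per kb in Stra8-deficient testes, and Sox5 and Sox6 were in wild type. It held 93.9 ± 4.68% of the group's reads per kb in Stra8-deficient testes, against 3.93 ± 0.622% in wild type (SD, n = 3 each). Sox5 and Sox6 held 2.96 ± 1.83% and 3.19 ± 2.92% in Stra8-deficient testes, against 54.4 ± 2.74% and 41.7 ± 2.66% in wild type. These shares assume the longest transcript of each gene. With the Sox5 transcript of 1734 bases, its wild-type level would be 117 CPM per kb and its share larger. The group's summed level was 121 ± 49.9 CPM in Stra8-deficient testes, against 397 ± 9.02 CPM in wild type, without overlap.

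Genes of haploid germ cells fell alongside Sox5 and Sox6. All 10 genes of a list of round and elongating spermatids were lower, with a median of -12.16, values from -14.97 (Prm2, a protamine) to -5.77 (Spaca1, an acrosomal membrane protein) and a summed level of 8.48 to 14.9 CPM in Stra8-deficient against 26073 to 30383 CPM in wild-type testes. Catsper1 was at 0 reads in all Stra8-deficient libraries, and the other 9 were read in at least 1 of them. Among 9 spermatocyte genes 6 fell, while Sertoli scaling gave 4 higher and 3 lower. Their summed level was 243 to 270 CPM in Stra8-deficient testes, against 8128 to 8542 CPM in wild type. Of the wild-type sum Ldhc and Hspa2 held 4273 and 2292 CPM on average, against 2.07 and 16.9 CPM in Stra8-deficient testes. The fall was not uniform: Dmc1 (0.003), Sycp1 (-0.03) and Hormad1 (-0.29) were not called, and Sycp3 was at -0.39. The part of these cells in the levels of Sox5 and Sox6 was not tested.

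Reported targets and partners of SoxD factors were mostly lower: 9 of 11 tested, with 1 higher, 1 not called and a median of -3.10, which was 0.13 under Sertoli scaling, with 2 higher and 5 lower. The list mixes cartilage genes with genes of the sperm tail. Spag6, a protein of the sperm axoneme, fell by 10.15 ± 0.35 (edgeR, adjusted p = 3.48e-08), and Catsper1, a calcium channel of the sperm tail, had 0 reads in Stra8-deficient against 3363 in wild-type libraries, at least 2095-fold lower when 3 counts over the genotype are assumed. Acan, the cartilage proteoglycan aggrecan, rose by 1.86 ± 0.44 (edgeR, adjusted p = 0.00367).

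Sox13 binds TCF proteins and SoxC factors are known to act on beta-catenin, so TCF and beta-catenin genes were listed as well. Of 12 tested, 6 were higher, 4 lower and 2 not called, with a median of 0.84, and under Sertoli scaling 9 were higher and 1 lower. Tcf7l2, a TCF factor, rose by 2.39 ± 0.25 (edgeR, adjusted p = 2.71e-05), and Sp5, a direct target of the pathway with a single wild-type read, had a ratio of 59.4 (95% counting interval 10.4 to 2367). Lgr5, another target gene, fell by 5.47 ± 0.37 (edgeR, adjusted p = 1.41e-06). The targets in the list therefore did not share a direction. T cell genes are from the lineage in which Sox13 is best known. Their summed level was 46.1 to 54.3 CPM in Stra8-deficient testes, against 32.9 to 37.4 CPM in wild type. Of 6 tested, 3 were higher, 1 lower and 2 not called (5 higher under Sertoli scaling). The genes behind the sum did not move alike. Cd247 was at 28.1, 42.2 and 0.335 CPM and Cd4 at 10.1, 3.53 and 32.2 CPM in the Stra8-deficient libraries. Cd3d was the 1 lower, at 0.391 CPM in Stra8-deficient testes against 5.47 CPM in wild type on average. None of the 8 listed T cell genes was at 0 in either genotype, and their part in the level of Sox13 was not tested.

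Sox18, the SoxF factor of blood and lymphatic vessels, was the least read of the 8 over both genotypes. It was at 4.82, 1.81 and 1.61 CPM in the Stra8-deficient libraries, from 48, 19 and 24 reads, against 4.84, 4.24 and 5.69 CPM in the wild-type libraries, from 31, 30 and 31 reads. The first Stra8-deficient library lay within the wild-type range and the other 2 below it. The log2 fold change was -0.85 ± 0.48, with a 95% interval of -1.93 to 0.23 (edgeR, adjusted p = 0.133). By that interval, the values were compatible with a fall by up to 1.93, no change or a rise by up to 0.23 on the log2 scale. Without the first Stra8-deficient library the value was -1.55 and called (edgeR, adjusted p = 0.00500). Under Sertoli scaling it changed sign, to 2.05 (edgeR, adjusted p = 0.0343).

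Endothelial markers showed no fall like that of the other SoxF genes. Of 11 tested, 6 were higher and the other 5 not called, with a median of 0.73 and a summed level of 145 to 305 CPM in Stra8-deficient against 92.5 to 115 CPM in wild-type testes. With RLE size factors 4 were higher, with library size alone 7, and with offsets for GC and length 6 were higher and 1 lower. Under Sertoli scaling 10 of the 11 were higher, with a median of 3.74. Pecam1, an adhesion molecule of endothelium and of some blood cells, rose by 3.50 ± 0.34 and Egfl7, a secreted endothelial factor, by 1.68 ± 0.26 (edgeR, adjusted p = 1.44e-05 and 2.69e-04). The 5 not called were Cldn5 (-1.17), Tie1 (-0.46), Cdh5 (-0.12), Eng (0.14) and Kdr (0.55). Much of the sum came from Vwf, at 182, 86.2 and 36.0 CPM in the Stra8-deficient libraries, against 36.8, 38.0 and 41.3 CPM in wild type. None of the 12 listed markers was at 0 in either genotype. Sox7 and Sox17, the other SoxF genes, were lower at -3.67 ± 0.58 and -3.77 ± 0.31 (edgeR, adjusted p = 3.51e-04 and 5.30e-06), and neither was called under Sertoli scaling (-1.70 and -0.82). Of 10 targets and partners of SoxF factors, 3 rose, 2 fell and 5 were not called, while 6 rose and 2 fell by library size alone and 7 were higher under Sertoli scaling. Of all 15018 tested genes, 7550 were higher by library size alone and 10212 under Sertoli scaling. Dll4, a Notch ligand of arteries, rose by 1.53 ± 0.48 and Rbpj, the transcription factor of Notch signalling, by 1.20 ± 0.33 (edgeR, adjusted p = 0.0157 and 0.00799). Prox1, the lymphatic factor that Sox18 activates, fell by 3.57 ± 0.30 (edgeR, adjusted p = 5.24e-06) and was at -0.80, not called, under Sertoli scaling.

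**Figure D3:**
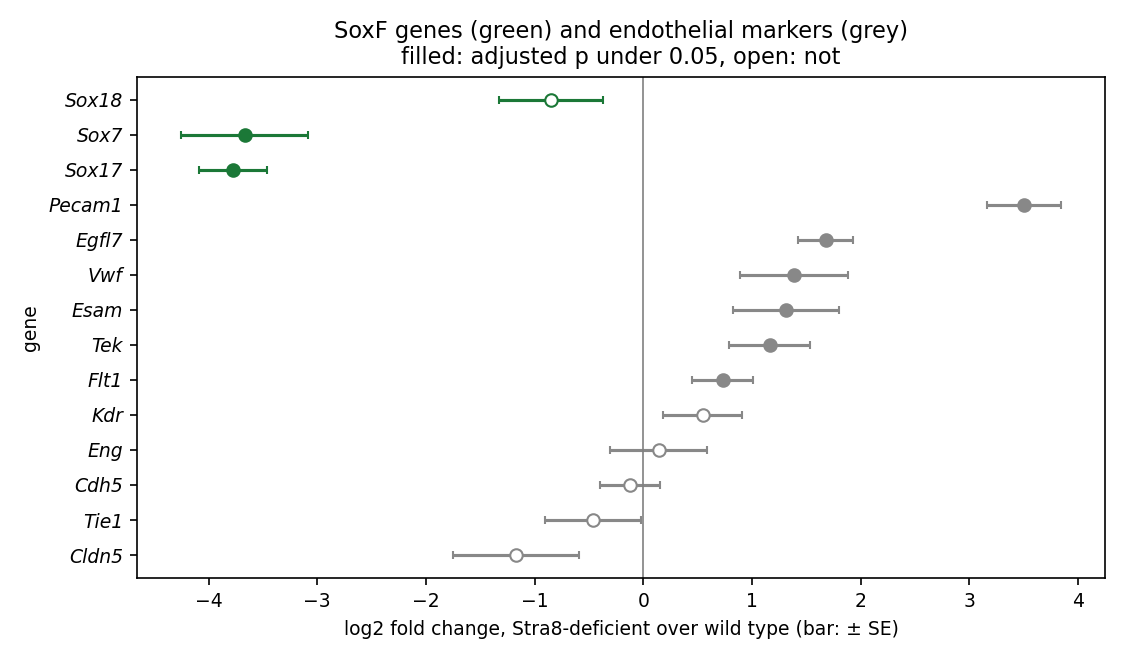
Log2 fold change of the SoxF genes (green) and of 11 endothelial markers (grey), Stra8-deficient over wild type, with bars of ± 1 SE; filled points have an adjusted p under 0.05. Sox7 and Sox17 lie near -3.7, Sox18 at -0.85, and 6 of the markers lie above 0 and are filled.

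The order of levels, compared per kb of longest GENCODE transcript, differed between the genotypes. Among Stra8-deficient testes Sox3 came first with 81.7 ± 51.3 CPM per kb (SD, n = 3, as for all levels per kb), followed by Sox13 with 29.5 ± 14.4, whose range overlapped that of Sox3. Sox12 (12.4 ± 2.18) and Sox4 (10.1 ± 2.40) overlapped each other, and Sox11 (4.65 ± 1.16) lay below both. Sox18 (1.69 ± 1.11), Sox6 (0.766 ± 0.388) and Sox5 (0.757 ± 0.156 CPM per kb) closed the order, each overlapping its neighbour.

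In wild-type testes Sox5 came first with 28.1 ± 2.03 CPM per kb and Sox6 next with 21.5 ± 1.02, without overlap between them. Sox12 had 6.34 ± 0.430 CPM per kb. Sox4 (3.22 ± 0.473), Sox3 (3.13 ± 0.774) and Sox18 (3.04 ± 0.450) did not differ beyond their spread, and Sox13 (2.02 ± 0.294) and Sox11 (0.268 ± 0.121 CPM per kb) came last. The order over the 8 was the same when the union of exons was used for length. If the wild-type reads of Sox5 came from the transcript of 1734 bases, its level would be 117 ± 8.49 CPM per kb.

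Added up, the 8 genes had overlapping levels in the 2 genotypes, made of different members. Their summed level was 435 ± 164 CPM in Stra8-deficient testes, against 454 ± 4.78 CPM in wild type (SD, n = 3 each). In the Stra8-deficient libraries the sums were 603, 276 and 427 CPM, a range that includes the wild-type values. Of the reads of the 8 genes, Sox3 and Sox13 held 36.0 ± 11.2% and 24.3 ± 2.89% in Stra8-deficient testes, against 1.42 ± 0.360% and 1.65 ± 0.253% in wild type. Sox5 and Sox6 held 1.47 ± 0.844% and 1.88 ± 1.66% in Stra8-deficient testes, against 44.7 ± 2.93% and 41.0 ± 2.04% in wild type.

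**Figure D4:**
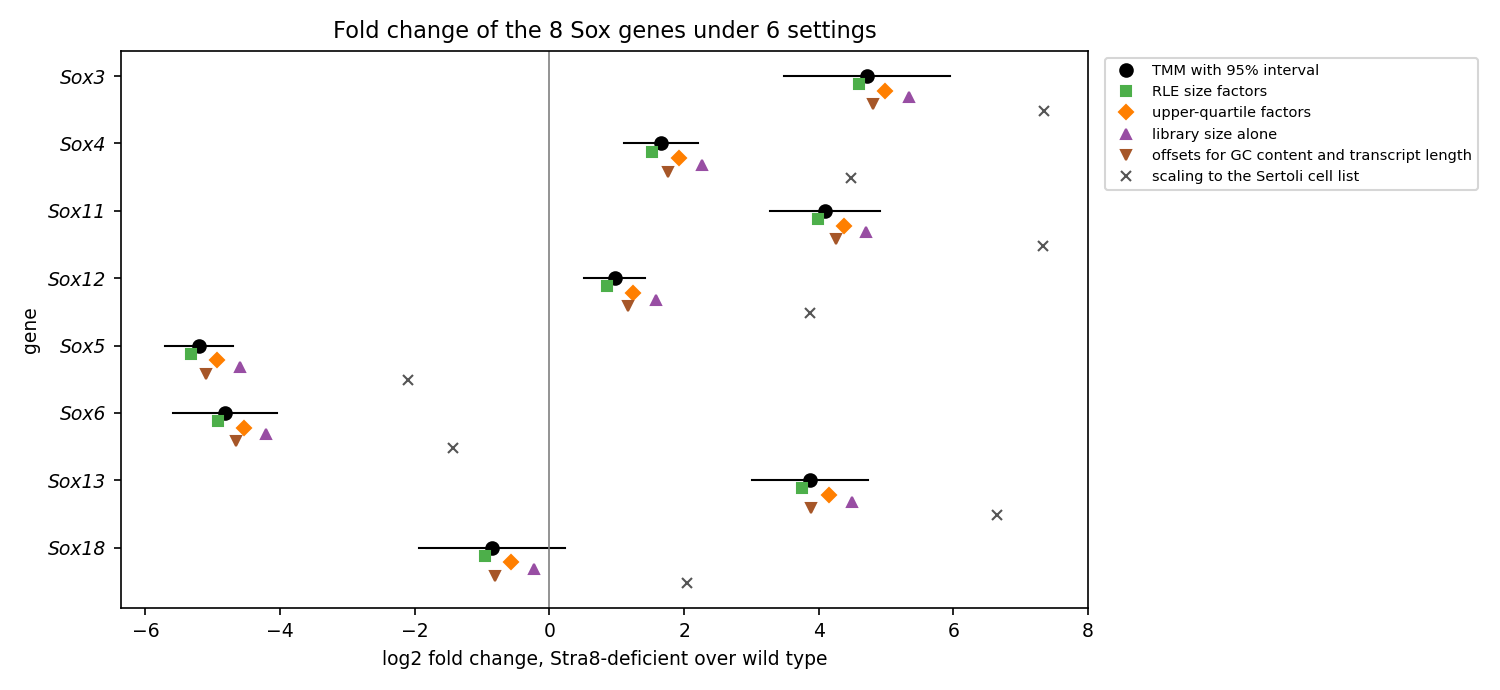
Log2 fold change of each gene, Stra8-deficient over wild type, with TMM factors and its 95% interval (black) and under 5 other settings (coloured symbols). The 7 called genes keep their direction under all 6 settings, with Sox6 no longer called under scaling to Sertoli cell genes, and Sox18 changes sign under that scaling alone.

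Spread among libraries was wider in the Stra8-deficient testes for 7 of the 8 genes, all but Sox11. The highest library exceeded the lowest most for Sox3, and by 3.00-fold for Sox18, 2.75-fold for Sox13 and 2.48-fold for Sox6 in Stra8-deficient testes, where the median over 14052 genes read in every library was 1.70-fold. Sox4, Sox11, Sox12 and Sox5 spanned 1.42-fold to 1.62-fold there. In wild-type testes the range was widest for Sox11 at 2.55-fold, where it rested on 7 to 21 reads, and 1.09-fold to 1.65-fold for the other members, with a median over all genes of 1.20-fold.

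The Stra8-deficient libraries did not rank alike for all members. The first held the highest level of 4 genes (Sox3, Sox12, Sox13 and Sox18), the second of 3 (Sox11, Sox5 and Sox6) and the third of Sox4 alone. The second library was lowest for Sox3, Sox4, Sox12 and Sox13. That library also had the lowest summed level of Leydig cell genes, 19.1 CPM, against 347 and 2738 CPM in the other Stra8-deficient libraries and 846 to 1331 CPM in wild type. Its sum of Sertoli cell genes was 111 CPM, against 289 and 798 CPM in the other Stra8-deficient libraries and 1705 to 1901 CPM in wild type. Whether these cells bear on the spread of the Sox genes was not tested.

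**Figure D5:**
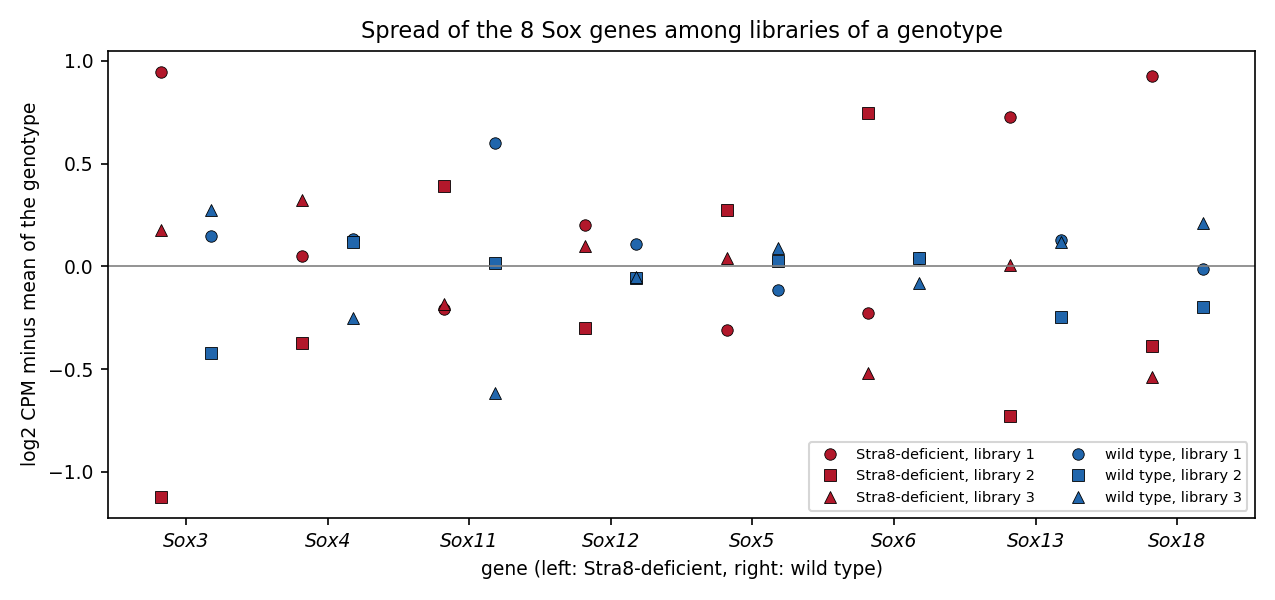
Log2 CPM of each gene in each library minus the mean of its genotype, Stra8-deficient in red on the left and wild type in blue on the right. The points of Sox3, Sox13, Sox18 and Sox6 spread most in red, and the second Stra8-deficient library (square) lies lowest for Sox3 and highest for Sox6.

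Profiles over the 6 libraries were compared with those of all genes, each centred on its own mean, by the root mean square difference of log2 CPM. The closest genes were Gabrr1 (0.169) and Cdh1 (0.254) for Sox3, and Igfbp2 (0.103) and 2010317E24Rik (0.130) for Sox13. For Sox5 they were Wfdc3 (0.0977) and Sgms1 (0.0993), and for Sox6 Glt1d1 (0.0877) and 4933408B17Rik (0.0921). Sox11 was closest to Enox2 (0.179) and Syde2 (0.211), Sox4 to Rps4y2 (0.0853) and Fam165b (0.0877), Sox12 to Tmem222 (0.0431) and Samm50 (0.0633), and Sox18 to Nr4a1 (0.112) and Zfp687 (0.123). These are descriptions over 6 libraries that fall into 2 genotypes, so genes that differ alike between the genotypes come out as close.

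The rest of the family gives the setting of the 8. Of 12 other Sox genes 9 were tested, of which 1 was higher, 7 lower and 1 not called, with a median of -3.67, and under Sertoli scaling 2 were higher and 1 lower. Sox30, the SoxH factor of spermatid development, was lower at 6.73, 3.81 and 6.23 CPM in Stra8-deficient against 363, 367 and 360 CPM in wild-type libraries (-6.02 ± 0.26; edgeR, adjusted p = 9.66e-08). Sox2, of the same SoxB1 group as Sox3, had 159 reads in Stra8-deficient and 3 in wild-type libraries, a ratio of 28.4 (95% counting interval 9.53 to 139). Sox21, a SoxB2 gene, had 36 reads in Stra8-deficient and 0 in wild-type libraries, at least 6.42-fold higher, and was too low to be tested. Sox9, the Sertoli cell factor, was lower at -4.00 ± 0.30 and Sox10, a glial factor, was not called at -0.01 (edgeR, adjusted p = 2.58e-06 and 0.992), and Sox9 itself was not called under Sertoli scaling, of which it is a part.

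The authors' deposited table gave the same directions for the 8 genes. Its log2 ratios were 4.71 for Sox3, 1.65 for Sox4, 4.11 for Sox11, 0.97 for Sox12, -5.33 for Sox5, -4.81 for Sox6, 3.87 for Sox13 and -0.86 for Sox18. In the authors' deposited table Sox18 had a nominal p of 0.0369 and a false discovery rate corrected p of 0.0554, and the other 7 had corrected values of 0.00349 or lower.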

How the data were processed

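Whole-testis RNA was sequenced in 6 libraries, 3 Stra8-deficient and 3 wild type by label. TopHat, HTSeq, edgeR and the mm9 build are named by the submitters' processing notes, without versions or settings. Counts are whole reads per gene symbol, as the authors deposited them. The authors' deposited table holds log2 ratios, log2 average abundances and p-values.

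HTSeq's counters (20.9% to 34.5% of a library's reads) were left out. Counts of 21786 symbols common to the 6 files were filtered with filterByExpr (15018 genes kept), scaled by TMM (factors 0.796 to 1.27) and tested with edgeR 4.0.16 (glmQLFit, robust; R 4.3.3), with genotype as the one term and Benjamini-Hochberg adjustment over all 15018 genes at 0.05. An approximate SE was taken as the absolute log2 value over the square root of F. A prior count of 2 entered log2 CPM. The fit was tested on simulated data. The labels do not say whether replicates came from separate animals, so p-values measure only the spread between these samples, which may be technical. Counts of 0 allow 3 counts, 0.243 to 0.447 CPM before TMM; limits and intervals cover counting error only.

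Symbols were matched to GENCODE M21 (GRCm38) for chromosome, length, GC content and overlaps, 19724 by name and 1745 by synonym; no coordinates were converted. The members and gene lists were chosen with earlier results of these data known. All members are named. Of each list, up to 2 called genes with the largest change in its main direction are named, and 1 in the other direction. These needed a mean log2 CPM of 0 or more, and any other Sox gene may be named. Neurog3, Tead2, Prm2, Spaca1, Clu, Fshr, Trf, Vwf, the endothelial markers not called and the T cell genes were added with their values known. So were the spermatocyte genes. Likeness used the 2 closest genes per member. Alternatives were other scalings, filters and tests (DESeq2 1.42.0, edgeR's exact test, limma-voom with limma 3.58.1), a replicate block, leaving out each library, and an added fit with GC and length offsets, chosen after seeing the data. Unmatched sample columns: 0.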

Additional observations from a re-analysis of the deposited data

How the results depend on the processing

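All 7 called genes kept their direction and their call under each of the 17 alternatives, except Sox6 under Sertoli scaling (-1.43; edgeR, adjusted p = 0.130). Under that scaling the number of Sox genes called lower was 1 instead of 2, Sox18 reversed to 2.05, the median of all genes was 3.08 and higher genes made up 87.4% of all calls, against 51.5% with TMM; with library size alone they made up 63.6% and the median was 0.73. With upper-quartile factors, RLE factors and DESeq2 the median was 0.38, -0.009 and -0.008. TMM factors were 1.21 to 1.27 in the Stra8-deficient libraries and 0.796 to 0.813 in the wild-type ones. With TMM the 11 Sertoli cell genes had a median of -3.50. They summed to 399 CPM in Stra8-deficient testes, against 1798 CPM in wild type, on average. The cause of these differences between the genotypes was not tested. Leaving out 1 library moved Sox18 between -1.55 and -0.58, called only without the first Stra8-deficient library, and the number of genes called between 10246 and 11542. Replicate numbers are shared between genotypes but mark no common litter or batch in the labels. The correlations of deviations of same-numbered libraries were 0.058, 0.080 and -0.040, and 3 of 6 libraries correlated best with their own number. With the replicate block 11218 genes were called instead of 11379, the same 7 Sox genes passed, and Sox18 was at -0.99 (edgeR, adjusted p = 0.0800). In the added fit with GC and length offsets the 8 values ranged from -5.09 (Sox5) to 4.81 (Sox3). Depth limits Sox18 and the wild-type values of Sox11 most, at 19 to 48 and 7 to 21 reads per library.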
